A study of Homo sapiens with 12 samples.

Results

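The genes described here encode the proteins of the cytosolic ribosome. A gene belonged to the group if its symbol followed the naming of these proteins (RPL for the large subunit, RPS for the small subunit, RPLP for the stalk), if it had a probe set annotated to that gene only, and if its log2 value was at least 5 on at least 2 arrays. Where a gene had several probe sets, the one with the highest mean was taken. In all, 55 of the 9130 genes kept by the same rules were members, 34 of the large and 21 of the small subunit.

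The samples came from HCT116, an established human colorectal cancer cell line, collected in step by a double block with thymidine, which stalls DNA synthesis, and then washed free of it. Some cells were released into nocodazole, which takes apart the microtubules of the spindle so that division stops in mitosis, and were collected hourly from 7 to 10 h. The others were released into the solvent DMSO and collected at release, then every 2 h up to 6 h and hourly up to 10 h. All 12 samples therefore carried the thymidine treatment. Each condition was 1 array, so every test below measures a difference against its spread over hours and not over repeated cultures, and the labels do not say whether hours came from separate cultures. The arrays give each transcript relative to the rest of the labelled RNA, and less RNA per cell and fewer cells with a transcript cannot be told apart. The epithelial markers EPCAM, CDH1, KRT8, KRT18 and KRT19 were at log2 10.39 or more on all 12 arrays, while CDX1 and VIL1, markers of the differentiated gut, did not pass 2.80. Of 8 measured markers of blood, vessel and stromal cells, 7 did not pass 4.87, and COL1A1 lay between 7.75 and 8.60.

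Ribosomal proteins bind ribosomal RNA in the nucleolus, nearly all of them are needed in equal numbers, and their mRNAs are among the most abundant and longest lived of a dividing cell. Most of these mRNAs start with a C followed by a run of pyrimidines (C or T), the 5′ TOP tract, through which mTORC1 and the protein LARP1 switch their translation on and off with little change in mRNA amount. Transcripts of this group are often used as references for other transcripts, and the question asked of the data was how level these transcripts were from S phase through division and during arrest in mitosis.

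The start of the transcript is the feature that most members share and the naming rule did not use. The sequences below, from RefSeq (GRCh38.p14), run 5′ to 3′ on the transcribed strand over the 10 bases before and the 20 bases from the annotated start. Capitals mark the longest run of C and T inside the stretch from 5 bases before to 10 bases after the start (the first such run where several are equally long), and bases of a run beyond that stretch stay in lower case. The first 6 genes are typical members on which results below turn (RPS6, the small subunit protein phosphorylated by S6 kinase; the stalk proteins RPLP1 and RPLP2; RPL27A; RPS25; RPS27), and the other 3 are RPL3, a protein close to the peptidyl transferase centre, and the paralogs RPS27L and RPL7L1.
RPS6, chr9:19380217-19380246, minus strand: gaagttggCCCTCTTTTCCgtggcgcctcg
RPLP1, chr15:69452808-69452837, plus strand: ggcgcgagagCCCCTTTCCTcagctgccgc
RPLP2, chr11:809957-809986, plus strand: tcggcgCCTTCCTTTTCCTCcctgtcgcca
RPL27A, chr11:8682782-8682811, plus strand: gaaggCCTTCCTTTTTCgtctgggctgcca
RPS25, chr11:119018324-119018353, minus strand: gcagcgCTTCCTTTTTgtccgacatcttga
RPS27, chr1:153990752-153990781, plus strand: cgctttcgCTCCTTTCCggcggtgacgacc
RPL3, chr22:39319604-39319633, minus strand: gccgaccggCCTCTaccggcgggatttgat
RPS27L, chr15:63157458-63157487, minus strand: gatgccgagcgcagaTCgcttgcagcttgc
RPL7L1, chr6:42879606-42879635, plus strand: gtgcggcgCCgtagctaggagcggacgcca

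Inside that stretch, a run of at least 6 pyrimidines was found at 39 of 49 members with an annotated start (79.6%), with a median run of 10. It was found at 1415 of 7536 other kept genes (18.8%), with a median of 4, and at 4879 of 35116 starts in the whole table (13.9%); the transcribed strand alone was searched, no other motif was counted, and a gene with several starts was given its longest run. With runs followed past the ends of the stretch, a count added after seeing the data, 41 of 49 members (83.7%) had such a run, against 2388 of 7536 other genes (31.7%) and 9222 of 35116 starts (26.3%). Among the 10 members with a shorter run inside the stretch were 3 of the 4 paralogs (RPL26L1 with 3, RPL7L1 and RPS27L with 2 each), as well as RPL3, RPL9 and RPS4X with 5 each, RPL6 with 3 and RPL27, RPS15 and RPS29 with 2 each. RPL9 and RPS15 reached 6 once runs were followed past the stretch. RPL23A, RPL30, RPL37, RPL7, RPL8 and RPS15A had no start in the table. A run of letters is a description of the annotated start and does not show that a transcript begins there in these cells.

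Not every ribosomal protein gene could be followed. Of 84 protein-coding genes with such names, 55 were members. Another 15, among them RPL4, RPL5, RPL10, RPS2 and RPS3A, were named only in probe sets annotated to several genes, often with a small nucleolar RNA encoded in their introns. A further 4 stayed under the limit of 5, namely RPL36A and the paralogs RPL3L (known from muscle), RPL10L (known from testis) and RPL39L. No probe set named the remaining 10, among them RPLP0 and RPSA. The member nearest to the limit was RPLP2, with 5.45 on its second highest array, and the nearest gene outside was RPL36A, with 3.60 in its unshared set.

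The transcripts lay at the top of the measuring range. Of the 55 members, 51 had a mean log2 of at least 14 over the 12 arrays, out of 221 such genes among all 9130. RPLP1 (16.25), RPS16 (16.23), RPL41 (16.21), RPS23 (16.07) and RPL37A (16.05) had the highest means. The lowest were RPLP2 (4.78), RPL27A (9.24), RPL26L1 (11.10), RPL7L1 (12.60) and RPL3 (14.27). These values depend on the probes of each set and do not rank the amounts of different mRNAs.

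On these arrays the group was nearly level. As deposited, the median of the 55 members was 15.41, 15.34, 15.34 and 15.36 on the nocodazole arrays at 7, 8, 9 and 10 h, against 15.35, 15.32, 15.32 and 15.49 on the DMSO arrays of the same hours. The earlier DMSO arrays gave 15.49, 15.44, 15.50 and 15.46 at 0, 2, 4 and 6 h. All 12 medians lay within 0.18, and the nocodazole values fell inside the DMSO range. The median of all 9130 genes moved over 0.80 in the same files, with its lowest values of 8.88 and 8.76 on the nocodazole arrays at 9 and 10 h, against 9.27 and 9.56 on the DMSO arrays of those hours.

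After quantile normalization, which gives all 12 arrays the same distribution over all 54675 probe sets, the members' medians lay within 0.11. They were 15.39, 15.45, 15.35 and 15.36 with nocodazole at 7, 8, 9 and 10 h, and between 15.39 and 15.44 with DMSO. The nocodazole arrays at 8 and 9 h were then the highest and the lowest of all 12. The median of the large subunit genes ranged over 0.16 on this scale and that of the small subunit genes over 0.10. The median of all 9130 genes ranged over 0.11 here, like that of the members. That of the 170 other genes with a mean of at least 14 ranged over 0.049, less than that of the members.

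**Figure D1:**
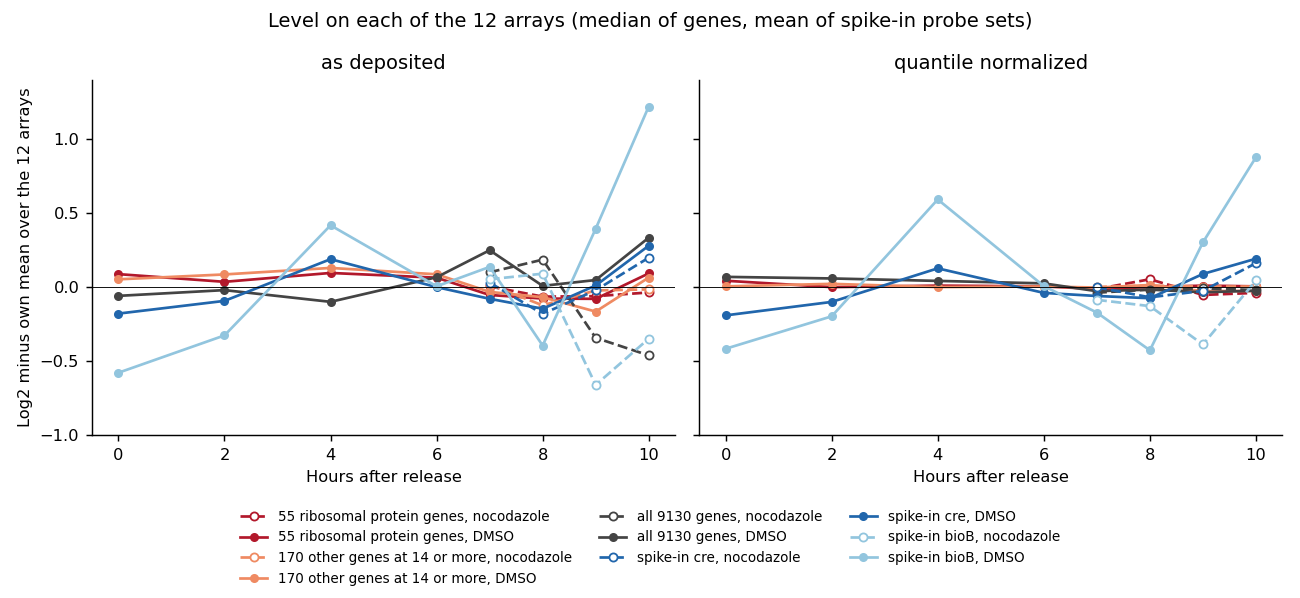
Level on each of the 12 arrays against hours after release, as the difference in log2 from its own mean over the arrays, for the 55 ribosomal protein genes (red), 170 other genes with a mean of at least 14 (orange), all 9130 genes (grey) and the spike-in probe sets cre (dark blue) and bioB (light blue), with open points and dashed lines for nocodazole and filled points and solid lines for DMSO. Gene sets are shown by their median on each array. The median of the members stays within 0.18 as deposited and 0.11 after quantile normalization, while the median of all genes drops on the late nocodazole arrays only as deposited.

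Single members also varied little. The SD over the 12 arrays had a median of 0.083 over the 55 members as deposited, against 0.321 over all 9130 genes, and 39 members (70.9%) had an SD under 0.1, against 326 of all genes (3.57%). After quantile normalization the median SD was 0.058 for the members and 0.271 for all genes. RPS6, with the smallest deposited SD of 0.051, gave 15.77, 15.64, 15.81 and 15.79 with nocodazole at 7, 8, 9 and 10 h, against 15.75, 15.70, 15.73 and 15.81 with DMSO, and 15.71 to 15.80 at the earlier hours. RPL3 gave 14.30, 14.12, 14.19 and 14.25 with nocodazole, against 14.24, 14.21, 14.23 and 14.36 with DMSO at the same hours. In both genes the groups overlapped.

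The smallest SDs after quantile normalization belonged to RPS10 (0.025), RPL6 (0.029), RPL30 (0.031), RPL23A (0.034) and RPS16 (0.034). The largest belonged to RPLP2 (1.66), RPL27A (1.34), RPL7L1 (0.232), RPS27L (0.131) and RPL36 (0.125), all of which are treated below except RPL36, which peaked at 14.75 on the DMSO 7 h array and otherwise lay between 14.45 and 14.64 as deposited.

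Spread declined with level over all genes, from a median SD of 0.379 between 8 and 10 to 0.0897 between 15 and 17 as deposited. The 170 other genes with a mean of at least 14 had a median SD of 0.118 as deposited and 0.0856 after quantile normalization. Between 15 and 17 the median SD was 0.077 for 37 members and 0.103 for 42 other genes as deposited, and 0.053 for the members and 0.072 for the others after quantile normalization. In that band 10 of the 42 other genes lay below the members' median as deposited, and 14 after normalization. The spike-in RNAs, which are added to every sample in fixed amounts, showed the same decline, with a range over the 12 arrays of 1.88 for bioB (7.20 to 9.08), 1.47 for bioC, 0.58 for bioD and 0.46 for cre (15.32 to 15.78). The members' median moved less than cre, which lies at the same level. The part of the top of the measuring range in the small spread of the members was not tested.

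**Figure D2:**
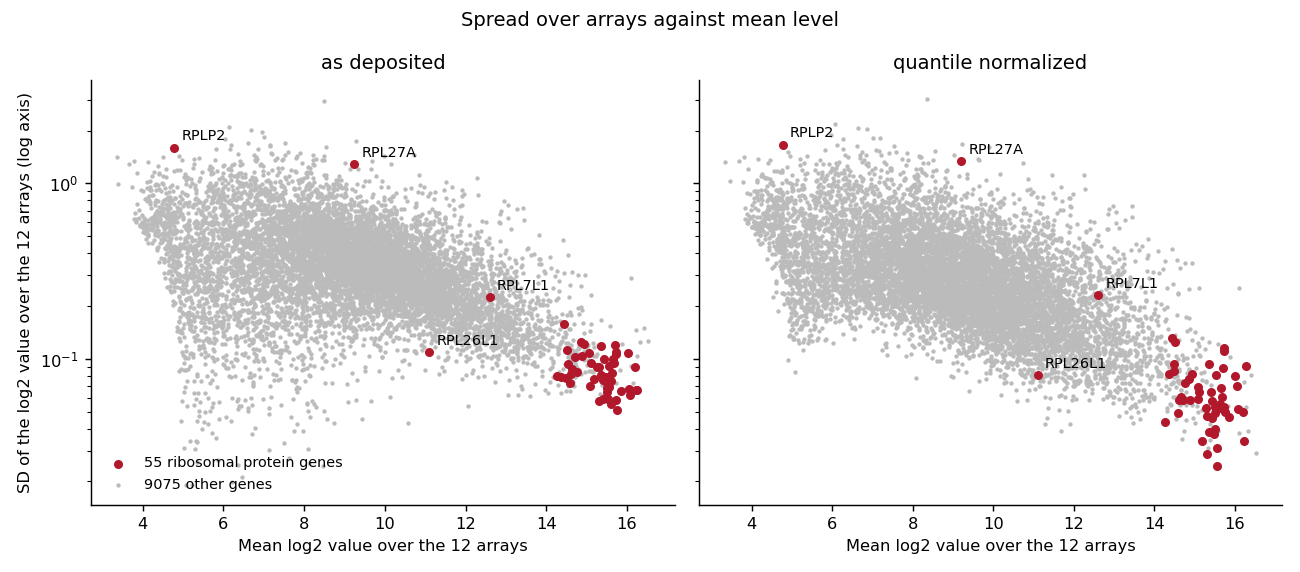
SD of the log2 value over the 12 arrays (log axis) against the mean log2 value, as deposited and after quantile normalization, for 55 ribosomal protein genes (red) and 9075 other genes (grey). The SD falls with level in both groups; 51 members lie at 14 or more, and RPLP2, RPL27A and RPL7L1 stand apart from them.

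Members followed one another more closely as deposited than on arrays of a common distribution. The Pearson correlation of a member with the median of the other members over the 12 arrays had a median of 0.819 as deposited (−0.347 for RPL7L1 to 0.959 for RPL32), and of 0.281 after quantile normalization (−0.543 for RPS21 to 0.804 for RPL37A). The points are arrays and share their scaling. As deposited, 26 members were highest on the DMSO 4 h array and 21 on the DMSO 10 h array, and 20 were lowest on the nocodazole 8 h array and 14 on the DMSO 9 h array. The 10 genes outside the group whose normalized values followed the members' median most closely over the 12 arrays were STX2 (r = 0.934), WDR47 (0.919), BCL7A (0.915), GPAT4 (0.907), the elongation factor gene EEF2 (0.887), GPI (0.873), CERK (0.865), HAX1 (0.859), ZBTB43 (0.856) and ZCCHC2 (0.850), as a description only.

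The first comparison asked whether holding cells in mitosis changed these transcripts. With the 4 nocodazole arrays set against the 4 DMSO arrays of the same hours and hour as a block, no member passed as deposited (limma, Benjamini-Hochberg adjusted p under 0.05 over all 9130 genes). The same was true of every gene (0% called), although 953 genes and none of the members had an unadjusted p under 0.05. The members' differences had a median of −0.02 and ran from −0.45 (RPLP2) to 0.07 (RPL9), with a median SE of 0.05, against a median of −0.22 over all genes. After quantile normalization again no member passed, against 0.252% of all genes higher and 0.142% lower, and 2 members had an unadjusted p under 0.05.

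Hour by hour, the deposited nocodazole minus DMSO difference of the members had a median of 0.02 at 7 h, −0.02 at 8 h, 0.03 at 9 h and −0.12 at 10 h. That of all genes was −0.09, 0.08, −0.25 and −0.61. At 10 h, 49 of 55 members were lower with nocodazole, and after quantile normalization 32 were lower and 23 higher at that hour.

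The late arrest, at 9 and 10 h, was therefore tested alone. As deposited, 1 of 55 members passed: RPLP2 was lower by 0.95 (SE 0.31, adjusted p = 0.024, limma), with 3.84 and 3.80 at 9 and 10 h with nocodazole against 4.10 and 5.45 with DMSO. Among all genes 40.8% were lower and 4.42% higher. The members' median difference was −0.05, against −0.44 for all genes. The call for RPLP2 rests on the arrays of 10 h, without which the difference was −0.26, and on a probe set near the bottom of the range that is described below. That set reached 5 only on DMSO arrays (5.26 at 2 h, 9.47 at 4 h and 5.45 at 10 h) and lay between 3.79 and 4.12 with nocodazole. RPLP2 thus entered the test through DMSO arrays alone, so its late call cannot be read as support for a change with nocodazole.

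After quantile normalization 6 of 55 members passed, 3 higher and 3 lower, where 17.4% of all genes were higher and 17.7% lower. RPL11, which binds the p53 regulator MDM2 when ribosome assembly fails, gave 14.71 and 14.73 at 9 and 10 h with nocodazole against 14.61 and 14.55 with DMSO, a difference of 0.14 (SE 0.05, adjusted p = 0.049, limma). RPL9 was higher by 0.12 (SE 0.04) and RPS25 by 0.19 (SE 0.04). RPLP1, a protein of the stalk that recruits elongation factors to the ribosome, was lower, at 16.15 on both nocodazole arrays against 16.43 and 16.27 on the DMSO arrays, a difference of −0.21 (SE 0.07, adjusted p = 0.040, limma) that was 0.50 with each array centred on the median of all genes. RPL37A was lower by 0.15 (SE 0.04), and its difference was 0.53 with that centring and 0.21 for the mean of its probe sets as deposited. RPLP2 was lower by 1.16 (SE 0.31) in its low probe set, which had passed the level filter through DMSO arrays alone. The probe set it shares with SNORA52, with a mean of 15.66, had a late difference of −0.0087 as deposited. RPL27A had the largest upward difference among the members, 0.73, and did not pass: it gave 9.60 and 9.31 with nocodazole against 8.07 and 9.38 with DMSO. None of RPL11, RPL9, RPS25, RPLP1 and RPL37A passed as deposited, where RPL37A, for example, gave 15.98 and 15.99 with nocodazole against 15.98 and 16.12 with DMSO.

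Leaving out the arrays of 1 hour moved these counts widely. Without the 9 h arrays 11 of 55 members passed as deposited, beside 57.1% of all genes, and without the 10 h arrays 2 passed, RPS25 and RPS27, beside 15.9% of all genes. After quantile normalization 2 passed without the 9 h arrays (RPLP2 and RPS25; 29.9% of all genes), 2 without the 10 h arrays (RPL27A and RPLP1; 17.2%), and 9 without the 7 h (32.5%) or without the 8 h arrays (32.4%).

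**Figure D3:**
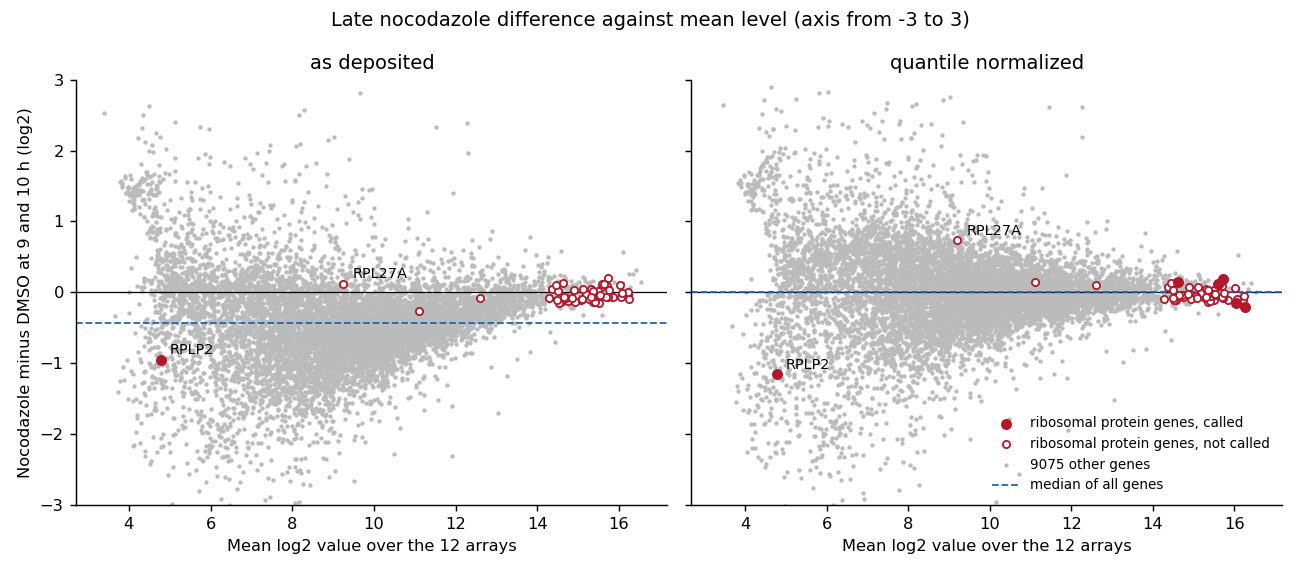
Nocodazole minus DMSO at 9 and 10 h (log2) against the mean log2 value over the 12 arrays, as deposited and after quantile normalization, with ribosomal protein genes in red (filled where called, open where not), 9075 other genes in grey and the median of all genes as a dashed line; the axis stops at −3 and 3. The members at 14 or more lie close to 0 on both scales, while the median of all genes is at −0.44 as deposited and at −0.0017 after normalization.

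What counted as a change in the other genes depended on the scale, and the members show by how much. With each array centred on the median of the members, all genes had a median late difference of −0.38, with 3916 lower and 544 higher, close to the deposited 3728 lower and 404 higher. With each array centred on the median of all genes, the median of all genes was 0.16, with 2591 higher and 1328 lower, and the members themselves had a median of 0.54, with 8 of them called higher (RPL11, RPL22, RPL22L1, RPL26L1, RPL27A, RPL35A, RPL7L1 and RPS27L). Quantile normalization left the members' median at −0.03 and that of all genes at −0.0017, with 1589 higher and 1615 lower. In all genes the deposited late difference had a median of −0.63 over the 2904 with a mean from 8 to 10 and of 0.0019 over the 79 from 15 to 17, and no shift of a whole array by 1 constant brings both bands to 0. The split of calls depended on the scale in the other contrasts too. For the change between early and late it was 1099 upwards and 569 downwards centred on all genes, and 255 and 1025 centred on the members. From 0 to 4 h to 6 to 8 h it was 442 higher and 422 lower centred on all genes, and 1065 and 100 centred on the members.

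The change of the nocodazole difference from 7 and 8 h to 9 and 10 h was tested directly. As deposited no member passed (limma; 2 members and 3215 genes had an unadjusted p under 0.05), where 1.99% of all genes changed upwards and 10.3% downwards. After quantile normalization 1 member passed, RPS25, a small subunit protein needed for translation from certain viral internal entry sites, where 4.07% of all genes changed upwards and 3.8% downwards. RPS25 gave 15.69, 15.72, 15.80 and 15.72 with nocodazole at 7, 8, 9 and 10 h, against 15.79, 15.89, 15.64 and 15.50 with DMSO. It was thus below DMSO at 7 and 8 h and above it at 9 and 10 h, a change of 0.33 (SE 0.06, adjusted p = 0.025, limma). On the deposited scale the change was 0.31 (SE 0.14, adjusted p = 0.138, limma). The normalized call was lost without the 8 h or without the 10 h arrays. It stayed without the 7 h or without the 9 h arrays. Every one of these omissions left 1 array per treatment early or late. The share of all genes called fell without the 7, 8 or 10 h arrays and rose without those of 9 h.

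The second question was whether the transcripts changed as DMSO cells went from S phase through division. From 0 to 4 h to 6 to 8 h, no member passed as deposited (limma; 5 members and 2274 genes had an unadjusted p under 0.05), against 5.41% of all genes higher and 0.635% lower. The members' median difference, 6 to 8 h minus 0 to 4 h, was −0.07, and 48 of 55 were lower in the later window, while the median of all genes was 0.06. The 170 other genes with a mean of at least 14 had a median of −0.08, with 131 lower. After quantile normalization the members' median was −0.02, with 34 of 55 lower. From 6 to 8 h to 9 and 10 h no member passed on either scale and 0% of all genes did (limma; unadjusted p under 0.05 in 0 members and 470 genes as deposited, in 3 members and 735 genes after quantile normalization). The members' median difference between those windows was 0.03 as deposited and 0.02 after normalization.

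After quantile normalization RPL7L1 was the 1 member that passed between the earlier windows, against 5.08% of all genes higher and 4.6% lower. RPL7L1 is a paralog of RPL7 whose yeast counterpart acts in assembly of the large subunit. It gave 12.20, 12.24 and 12.33 at 0, 2 and 4 h and 12.47, 12.66 and 12.66 at 6, 7 and 8 h, a difference of 0.34 (SE 0.08, adjusted p = 0.033, limma), and stood at 12.73 and 12.77 at 9 and 10 h. The windows did not overlap. As deposited the difference was 0.36 (SE 0.11, adjusted p = 0.084, limma). The normalized call was lost when the arrays of 0, 2, 7, 8, 9 or 10 h were left out. Calls over all genes fell as well. Without the 2, 7 or 8 h arrays 0% of all genes passed, and without the 0 h array 3.61%, against 9.68% with all hours. For RPL7L1 the nocodazole arrays gave 12.72, 12.72, 12.79 and 12.91 at 7, 8, 9 and 10 h, all above the DMSO arrays of the same hours, but the difference did not pass (0.08, SE 0.04, adjusted p = 0.346, limma). As deposited it was −0.02 (SE 0.09), and at 10 h the value was 12.77 with nocodazole against 12.98 with DMSO.

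Over the whole DMSO course, fitted with a smooth curve of hour, 3 of 55 members changed as deposited (RPL7L1, RPL27A and RPLP2), against 21.8% of all genes. After quantile normalization 7 of 55 did, against 40.1% of all genes: the same 3 together with RPL18, RPL37, RPL39 and RPS9. RPL39, one of the shortest ribosomal proteins and part of the wall of the exit tunnel, was at 15.83, 15.83, 15.80 and 15.79 at 0, 2, 4 and 6 h and at 15.61, 15.69, 15.61 and 15.60 at 7, 8, 9 and 10 h (adjusted p = 0.020, limma). Its last 4 values lay below its first 4. RPL37, also of the large subunit, gave 15.86, 15.86, 15.76 and 15.78 at 0, 2, 4 and 6 h and 15.77, 15.80, 15.66 and 15.61 at 7, 8, 9 and 10 h. RPL18 and RPS9 were lowest at 4 h and highest at 10 h: RPL18 gave 14.61 and 14.89 at these hours (adjusted p = 0.033, limma), and RPS9 gave 14.31 and 14.61 (adjusted p = 0.030, limma). Without the arrays of 9 h or of 10 h, RPL27A, RPL7L1 and RPLP2 alone passed on this scale. RPL18 and RPS9 also did not pass without the 4 h or without the 8 h array, beside 34.5% and 31% of all genes. As deposited, the count without the 8 h array was 0, beside 14.5% of all genes, and without the 10 h array 7, beside 18.1%.

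Among the members, 4 are paralogs named after another ribosomal protein gene. RPS27L, a paralog of RPS27 that p53 induces, was at 14.67, 14.51, 14.80 and 14.43 at 0, 2, 4 and 6 h and at 14.43, 14.44, 14.25 and 14.29 at 7, 8, 9 and 10 h with DMSO as deposited. Its difference of 6 to 8 h minus 0 to 4 h was −0.23 (SE 0.08) and did not pass (adjusted p = 0.126, limma). RPS27 itself stayed between 15.46 and 15.73. Another RPS27L probe set, with a mean of 9.83, gave 9.23 and 9.16 at 9 and 10 h with nocodazole against 9.56 and 9.85 with DMSO. RPL22L1 (14.21 to 14.47), RPL22 (14.71 to 15.01), RPL26L1 (10.94 to 11.37) and RPL7 (15.84 to 16.18) passed none of the tests on these 2 scales.

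**Figure D4:**
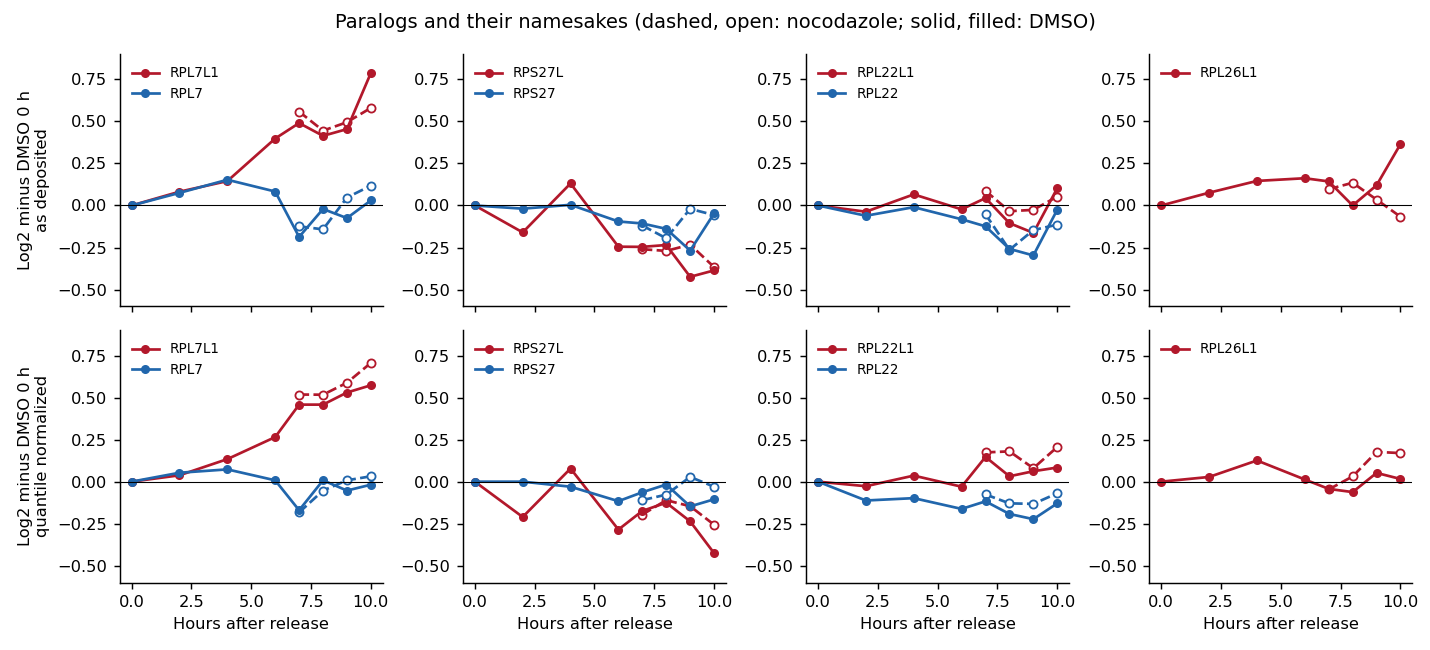
Log2 value minus that of the DMSO 0 h array against hours after release for 4 paralogs (red) and, where it was a member, the gene each is named after (blue), as deposited (upper row) and after quantile normalization (lower row), with open points and dashed lines for nocodazole and filled points and solid lines for DMSO. RPL7L1 lies higher at the later hours on both scales, while RPL7, RPS27 and RPL22 stay within 0.30 of their 0 h value.

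The other excursions came from probe sets that disagreed with a second probe set of the same gene. Of 92 kept probe sets of the members, 7 (7.61%) were more than 1 higher on the DMSO 4 h array than on the mean of the 2 and 6 h arrays, against 53 of 15030 kept probe sets (0.353%). RPL27A gave 12.59 at 4 h, against 9.84 at 2 h and 9.85 at 6 h. RPLP2 gave 9.47 at 4 h, against 5.26 at 2 h and 5.00 at 6 h. These are the sets chosen for both genes, because the other sets with a signal are annotated to a small nucleolar RNA as well. Those other sets were level: the set shared by RPL27A and SNORA3A stayed between 15.86 and 16.05, and the set shared by RPLP2 and SNORA52 between 15.59 and 15.77.

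A like split was seen within other members, whose chosen set moved far less. For RPL38, whose loss alters skeletal patterning in mice, 2 sets gave 14.08 and 14.42 at 4 h (11.89 and 12.19 at 2 h), while the chosen set moved between 14.70 and 15.11. For RPS10, a set at 11.97 at 4 h (9.21 at 2 h) stood beside a chosen set between 15.44 and 15.67. For RPL37A, a set at 14.31 at 4 h (13.04 at 2 h) stood beside a chosen set between 15.97 and 16.12. For RPS27L, a set at 11.79 at 4 h stood at 9.96 at 2 h. Its chosen set was also highest at 4 h, at 14.80 against 14.51 at 2 h and 14.43 at 6 h. These peaks moved with the ribosomal RNA controls of the array: the 18S rRNA probe sets averaged 8.32 on the DMSO 4 h array, against 3.55 to 4.05 on the other 11, and the 28S rRNA probe set gave 11.66, against 8.34 to 10.41. The 3′ minus 5′ difference, a sign of RNA integrity, stayed between 0.67 and 1.15 for ACTB and between −0.09 and 0.08 for GAPDH over all 12 arrays. The part of ribosomal RNA carried over into that sample was not tested.

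**Figure D5:**
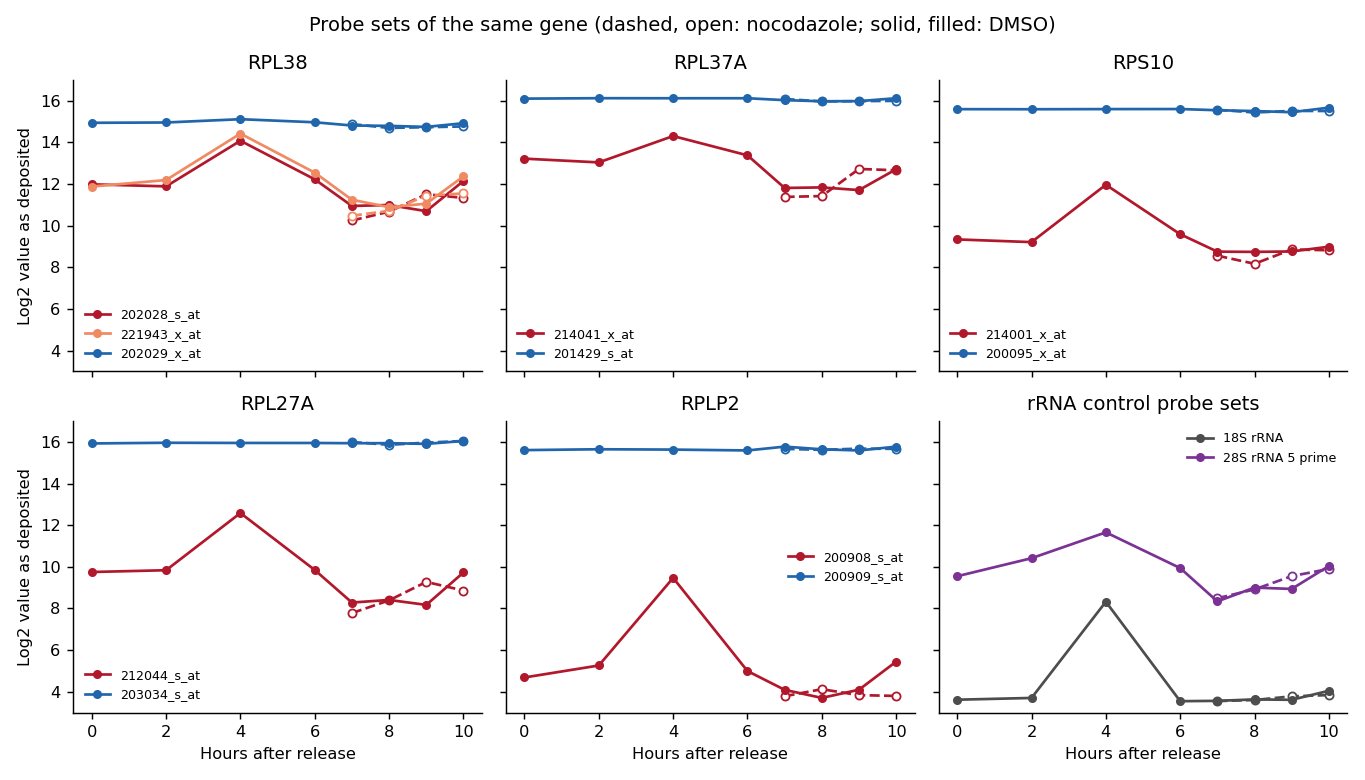
Deposited log2 value against hours after release for probe sets of RPL38, RPL37A, RPS10, RPL27A and RPLP2, and for the 18S (mean of 3) and 28S rRNA control probe sets, with open points and dashed lines for nocodazole and filled points and solid lines for DMSO. Not every set of each gene is shown. Of those shown, 1 set of each gene (blue) stays level near the top of the range. The others shown peak at DMSO 4 h, as the rRNA controls do.

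Late in arrest, deposited values at lower levels differed from those at the top, in the members' probe sets as in all genes. All kept genes had a median late difference of −0.36 from 5 to 8, −0.63 from 8 to 10, −0.47 from 10 to 12 and −0.17 from 12 to 14. The members' probe sets had a median of −0.57 over 14 sets with a mean under 10, −0.16 over 10 sets from 10 to 14, and −0.04 over 68 sets of 14 or more. The widest gap was in RPS24, where a second set gave 3.96 and 3.19 at 9 and 10 h with nocodazole against 7.87 and 7.73 with DMSO, a difference of −4.23. The chosen RPS24 set gave 15.56 and 15.59 with nocodazole against 15.47 and 15.70 with DMSO. Second sets of RPL37 (−1.31), RPL35A (−1.39) and RPS21 (−0.95) were also lower, beside chosen sets at −0.05, 0.02 and 0.02. For the 15 genes read only with other genes, RPL36A and the shared sets of members, the 46 shared sets with a mean of 14 or more had a median SD of 0.086. Their median late difference was −0.08.

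The rest of the translation machinery gave the following counts, to be read against all genes. Late in arrest 40.8% of all genes were lower and 4.42% higher as deposited, and 17.7% lower and 17.4% higher after quantile normalization. At 6 to 8 h 5.41% were higher and 0.635% lower as deposited, and 5.08% higher and 4.6% lower after normalization. Of 19 translation factors and partners of the 5′ TOP class, 14 were measured. None passed late in arrest as deposited, while after quantile normalization EEF2 (−0.17, SE 0.05), EIF3H (−0.15, SE 0.05) and FAU (−0.19, SE 0.06), the precursor of a small subunit protein, were lower. NAP1L1 was lower at 6 to 8 h than at 0 to 4 h (−0.27, SE 0.07) on that scale alone. None of the 7 snoRNA host genes of the class was measured. Of 21 measured genes of ribosome biogenesis and RNA polymerase I, 6 were higher and none lower at 6 to 8 h on both scales. Late in arrest 7 of the 21 were lower as deposited, and 1 was higher and 3 lower after quantile normalization. Of 75 genes of the mitochondrial ribosome, 44 were lower late in arrest as deposited, and 3 were higher and 21 lower after normalization, with median differences of −0.51 and −0.11. Of 45 initiation factor genes, 16 were lower and 1 higher as deposited, and 9 were lower and 3 higher after normalization.

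Of 13 genes often used as references, 11 were measured, with a median SD of 0.126 as deposited and 0.098 after quantile normalization, against 0.083 and 0.058 for the ribosomal protein genes. The reference genes also lay lower, at a median level of 14.70 against 15.42 as deposited. Genes from 14 to 15 outside the ribosomal protein group had median SDs of 0.123 and 0.093 on the 2 scales. Late in arrest GUSB was lower on both scales (−1.29, SE 0.23, as deposited, and −0.67, SE 0.14, normalized). After normalization PGK1 (0.17, SE 0.04) and YWHAZ (0.20, SE 0.06) were higher and GAPDH (−0.12, SE 0.04) was lower. The 3′ and 5′ control probe sets of GAPDH did not show that decrease, with late differences of 0.0078 and 0.024 on the same scale. Among all genes 40.8% were lower late as deposited, and 17.4% were higher and 17.7% lower after normalization.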

How the data were processed

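Total RNA of 12 samples was labelled and hybridized to Affymetrix U133 Plus 2.0 arrays. The deposited values are on the log2 scale, and the authors computed them with GC-RMA (version not given in the sources used here). Arrays did not share a distribution, so each test was also run after quantile normalization over all 54675 probe sets. Gene names came from the platform annotation: 41097 probe sets named 1 gene, 1801 several and 11777 none. Genes were kept at log2 of at least 5 on at least 2 arrays, with the highest mean probe set per gene. limma 3.58.1 (R 4.3.3), with an intensity trend and Benjamini-Hochberg adjustment over 9130 genes, gave 4 kinds of fit: nocodazole against DMSO with hour as a block, the same split into early and late (2 residual degrees of freedom before moderation), 3 windows of the DMSO course, and a natural spline with 3 degrees of freedom. The fits were tested on simulated data. Depth does not apply to arrays; their number, 1 per condition, limits the precision. Members, lists and named genes were chosen by written rules with earlier results of these data known: RPL3 and RPS6, the stalk genes, the paralogs, the 5 highest and lowest by level and by SD, up to 5 called members per direction, the 10 genes most like the members' median, and up to 4 called genes of the 5′ TOP and reference lists. Other probe sets of a member, and members called only without 1 hour, were named after their values were seen. Alternatives were other scalings, filters, probe set choices, spline and trend settings, and leaving out each hour.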

Additional observations from a re-analysis of the deposited data

Results flagged for a closer look

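RPS25 is listed because its nocodazole difference changed between the early and the late hours by a direct test of that change after quantile normalization, by 0.33 (adjusted p = 0.025, limma; below DMSO at 7 and 8 h and above it at 9 and 10 h). On the deposited scale the change had the same direction and did not pass.

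The 18S rRNA control probe sets, which enter no comparison, averaged 8.32 on the DMSO 4 h array, above the 3.55 to 4.05 of the other arrays. With 1 array per condition, no group was searched for outlying samples.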

How the results depend on the processing

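With 1 array per condition, the number of members called depended on the setting. The late differences of RPL37A and RPLP1, called lower after quantile normalization, were upward when deposited arrays were centred on the median of all genes (0.53 and 0.50). That of RPL37A was also upward as deposited with probe set means (0.21) and without the 10 h arrays (0.0013). Neither gene passed in these settings. After quantile normalization RPL37A was lower at 9 h too, at 15.92 with nocodazole against 16.05 with DMSO. The share of all genes called stands in parentheses. Late in arrest the count of 1 (45.3%) became 6 after quantile normalization (35.1%), 8 when centred on the median of all genes (42.9%) or on that of the members (48.8%), 4 with no level filter (67.5%), 0 with the filter at 7 (51.5%), 5 with the mean over a gene's probe sets (50%), 5 of 20 with probe sets lacking _x_at, _s_at or _a_at (43.7%), and 0 without RPLP2 and RPL27A (an alternative chosen after seeing the data). The change between early and late gave 0 members (12.3%), but 1 after quantile normalization (7.88%), 1 when centred on all genes (18.3%), 3 when centred on the members (14%), 3 with no filter (50.9%), 1 with probe set means (18.8%) and 2 of 20 with probe sets lacking the suffixes (6.03%). Between 0 to 4 h and 6 to 8 h the count of 0 (6.05%) became 1 after quantile normalization (9.68%), centred on the members (12.8%), and with probe sets lacking the suffixes (6.46%). The DMSO course, with 3 as deposited (21.8%), gave 7 after quantile normalization (40.1%), 5 centred on the members (31%), 9 with probe set means (25.1%), and 1 each with no filter (7.58%), with no intensity trend (18%), with 2 spline degrees of freedom (20.2%) and without RPLP2 and RPL27A.

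Centring on the median of all genes moved the members' median difference to 0.27 over 7 to 10 h, 0.54 late, 0.56 for the change, −0.24 from 0 to 4 h to 6 to 8 h and −0.056 from 6 to 8 h to 9 and 10 h, while centring on the members gave 0.022 from 0 to 4 h to 6 to 8 h. The SD of the members' median was 0.071 as deposited, 0.029 after quantile normalization and 0.23 centred on all genes, and the median SD of a member became 0.23 in the last. Leaving out the arrays of each hour in turn gave 0 members over 7 to 10 h, 1 to 11 late, 0 to 4 for the change, 0 and 0 for the DMSO windows and 0 to 7 for the course. The members' median difference then ran from −0.049 to 0.017, −0.12 to 0.032, −0.13 to 0.049, −0.11 to −0.051 and −0.072 to 0.11 for the 5 contrasts in the order of the report. With hours left out, the share of all genes called as deposited ran from 0% to 4.39% over 7 to 10 h. Between 0 to 4 h and 6 to 8 h it ran from 0% to 13.9%, and for the course from 9.44% to 24.3%. Late and for the change, the highest count of members came with the highest share, and some omissions left 1 array per treatment. For the change, the counts of 0 came with the lowest shares. RPLP2 no longer passed late when centred on all genes (−0.36, adjusted p = 0.445, limma). The causes were not tested. No paired analysis by replicate number was possible because each condition had 1 array; without hour as a block the count over 7 to 10 h was again 0. Signal near the top of the range limits what these arrays can show of the members.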
